A study of Gallus gallus with 6 samples.

Results

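Solute carriers are membrane proteins that move sugars, amino acids, ions, metals, vitamins and transmitters across the plasma membrane or the membranes of organelles. Some exchange solutes, others couple the solute to a sodium or proton gradient, and several work only with a partner protein. In the gut many are placed on one face of the epithelial cell, the brush border or the basolateral side, while others serve mesenchyme, nerve and muscle. Solute carrier genes were compared between ceca, a pair of blind-ended buds on the chick gut, and the region named interceca in the labels, in embryos of day 5, Hamburger-Hamilton stage 26. The genes taken were those whose symbol begins with SLC, a family number, A and a member number, without the mitochondrial carriers (SLC25A), that reached 1 RPKM in 3 or more of the 6 libraries. Of 17108 genes listed, 210 had such a symbol and 126 of these passed the filter, among 10678 genes tested in all. Of the 126 genes, 121 were transporters, of 40 SLC families, and 5 were not.

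RNA from dissected chick embryo guts was sequenced from 3 ceca and 3 interceca libraries, with no other treatment or genotype named. The labels do not say whether a library came from 1 embryo or a pool, nor whether replicates came from separate embryos, so p-values measure the spread between these libraries, which may be technical. Values are the authors' RPKM, a read rate scaled to gene length and to library size, which allow levels to be compared between genes. Whole reads recovered from them came to 15566780 to 22544831 per library. Differences are log2 fold changes, ceca over interceca, of RPKM + 0.5, a scale on which changes of low genes come out too small, with their standard error (SE), and adjusted p-values are from limma over all genes tested, with a threshold of 0.05.

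Solute carriers were divided, with 24 higher in ceca, 36 lower, and 66 that did not pass. Called genes thus made up 47.6% of the members, against 27.5% of all genes tested. By direction, 19% of the members were higher, against 13.5% of all genes tested, and 28.6% were lower, against 14.1%. The median log2 fold change was 0.01 over the members and 0.01 over all genes tested, while the median size of the difference, whatever its sign, was 0.27 and 0.15. At least a 2-fold difference was called for 6 members higher in ceca, with 1.95% of all genes tested past the same limit, and for 13 members lower, with 4.66% of all genes. The filter favoured part of both counts. Of those higher, SLC4A5, SLC12A5 and SLC10A2 reached 1 RPKM in ceca libraries only. Of those lower, SLC2A2, SLC5A9, SLC17A9, SLC24A5 and SLC34A2 reached it in interceca libraries only. All 3 ceca libraries lay above all 3 interceca libraries for 35 members, against 23% of all genes tested, and below them for 44, against 21.1%. In these mixed tissues, fewer cells of a type and less RNA per cell cannot be told apart.

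The filter itself favours genes that are high in 1 tissue. SLC4A5, SLC12A5 and SLC10A2 passed it through the ceca alone, and 7 members (SLC2A2, SLC5A9, SLC17A9, SLC24A5, SLC34A2, SLC12A8 and SLC1A2) through the interceca alone. SLC3A1, SLC4A4 and SLC44A3, also called lower, reached 1 RPKM in 3 interceca libraries but in 1, 1 and 2 ceca libraries. The ceca would not have let them in. With a filter on the mean over all 6 libraries in its place, 24 were higher and 35 lower, but that filter keeps most of the members just named. Of the 108 members at or above 1 RPKM in all 6 libraries, 21 were higher and 27 lower. The share of all genes called under that limit is not given here. Split by mean level, 6 of the 44 members under 5 RPKM were higher and 16 lower, where 31.4% of all genes at that level were called. Called shares were 40.4% of the 52 members from 5 to 20 RPKM, against 27.5%, and 56.7% of the 30 members at 20 RPKM and above, against 25.7%.

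**Figure D1:**
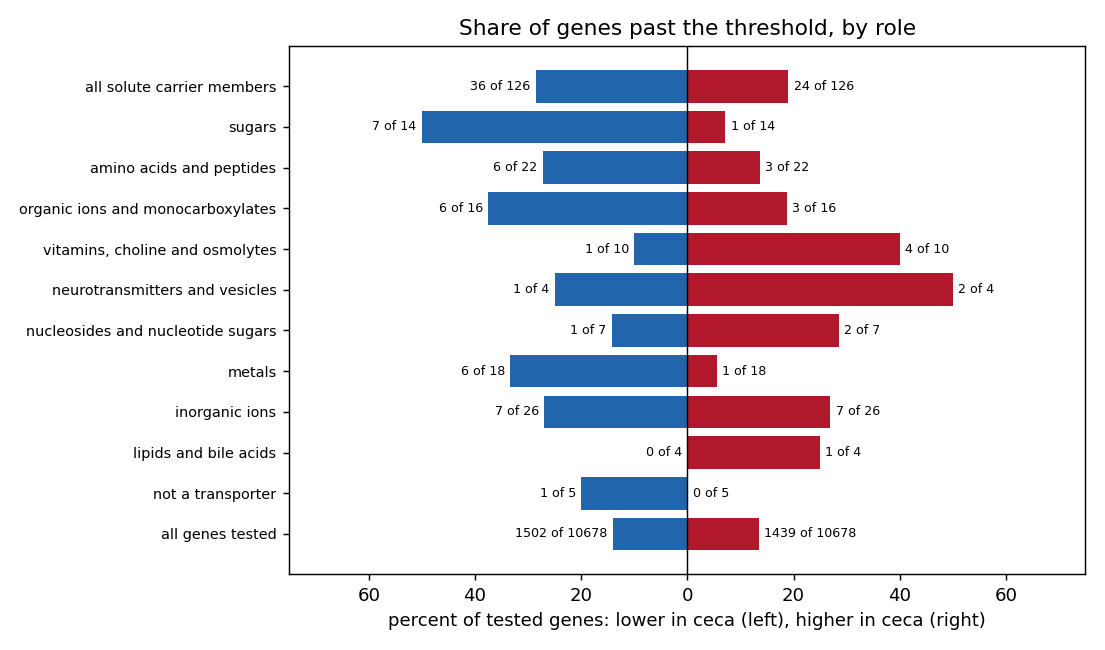
Percent of the genes tested that were lower (blue, left) or higher (red, right) in ceca, for all solute carrier members, for each role and for all genes tested, with the counts beside each bar. Among the sugar carriers 7 of 14 were lower and 1 was higher, while 4 of 10 carriers of vitamins, choline and osmolytes were higher and 1 was lower. Of the 7 lower sugar carriers, SLC2A2 and SLC5A9 passed the filter through the interceca alone.

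The summed RPKM of the 126 members was close in the tissues, at 1660.9 to 1705.1 in ceca libraries and 1691.3 to 1718.3 in interceca libraries. The most abundant member was SLC38A10, with a mean of 63.4 RPKM over the 6 libraries, and the lowest was SLC12A8, with 0.977 RPKM. The 10 most abundant held 27.6% of the sum, and SLC38A10, SLC38A2, SLC16A1, SLC19A1, SLC9A3R1, SLC30A4, SLC38A1, Slc9a3r2 and SLC2A1 were among them. The median level was 9.42 RPKM over the members and 15.7 RPKM over all genes tested. Their spread within a tissue, SD over mean, had a median of 7.85% in ceca and 8.26% in interceca, against 6.61% in ceca and 7.13% in interceca over all genes tested.

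Carriers of the transmitter noradrenaline and of its vesicles were higher in ceca. SLC6A2, the plasma membrane noradrenaline transporter, was at 15.2, 17.2 and 17.2 RPKM in ceca replicates 1 to 3, against 3.3, 2.92 and 2.76 RPKM in interceca replicates 1 to 3. On the RPKM + 0.5 scale this was the highest log2 fold change of any member, 2.29 ± 0.10 (SE, limma adjusted p = 5.21e-06), and the tissues were far apart. With limma-voom it was 2.48, below the 2.62 of SLC10A2. SLC18A2, which loads monoamines into vesicles, was at 8.13 ± 1.29 RPKM in ceca and 5.01 ± 0.62 RPKM in interceca (SD, n = 3 each, as for all values with an SD below). The difference was 0.64 ± 0.14 with no overlap of the libraries (limma adjusted p = 0.0109). SLC6A4, the serotonin transporter, was near the filter, at 0.783, 1.19 and 1.34 RPKM in ceca and 0.646, 1.06 and 0.965 RPKM in interceca, and did not pass (0.20 ± 0.21, adjusted p = 0.528).

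SLC17A9, the vesicular nucleotide transporter, went the other way. Its ceca libraries stood at 0.276, 0.381 and 0.34 RPKM and its interceca libraries at 2.18, 1.66 and 2.08 RPKM (-1.57 ± 0.17, limma adjusted p = 0.000402), and limma-voom on the recovered reads gave -2.55. Of 13 transmitter carriers listed, 9 were below the filter. Among these SLC5A7, the choline transporter of cholinergic nerve endings, was at 0.0308, 0.636 and 0.169 RPKM in ceca and 0.758, 0.517 and 0.691 RPKM in interceca, with overlapping libraries. SLC17A6, a vesicular glutamate transporter, was listed at 0 in every library, and SLC32A1, the vesicular GABA transporter, in all but ceca replicate 2.

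Marker lists of other cell types were read beside SLC6A2. Of the enteric neural crest and glia markers, 6 were tested, of which 3 were lower in ceca (50%, against 14.1% of all genes tested). None was higher, and 3 did not pass the threshold. The summed level of that list was 3.4 to 12.2 RPKM in ceca libraries and 17.9 to 20.5 RPKM in interceca libraries. Of 11 neuronal markers tested, 1 was higher in ceca (DCX) and 3 were lower (NEFL, NEFM and GAL), a called share of 36.4%, against 27.5% of all genes tested. The median log2 fold change of these markers was -1.26. Sums of the list were 819.7 to 885.1 RPKM in ceca and 954.6 to 1024.2 RPKM in interceca. Most of each sum was TUBB3, which did not pass, at 764.6 ± 64.4 RPKM in ceca and 855.4 ± 10.1 RPKM in interceca. Of 7 mesothelium markers tested, 5 were higher in ceca (71.4%, against 13.5% of all genes tested) and 1, MSLN, was lower. Sums of that list were 322.4 to 343.2 RPKM in ceca and 118.1 to 124.0 RPKM in interceca, with no marker at 0. Most of each ceca sum was WT1, at 188.4 ± 13.9 RPKM in ceca and 27.8 ± 3.45 RPKM in interceca. Of 10 blood endothelium markers tested 10% were called, of 3 leukocyte markers 33.3% and of 6 erythroid markers 0%, against 27.5% of all genes tested. What part any of these cells have in the level of SLC6A2 was not tested.

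**Figure D2:**
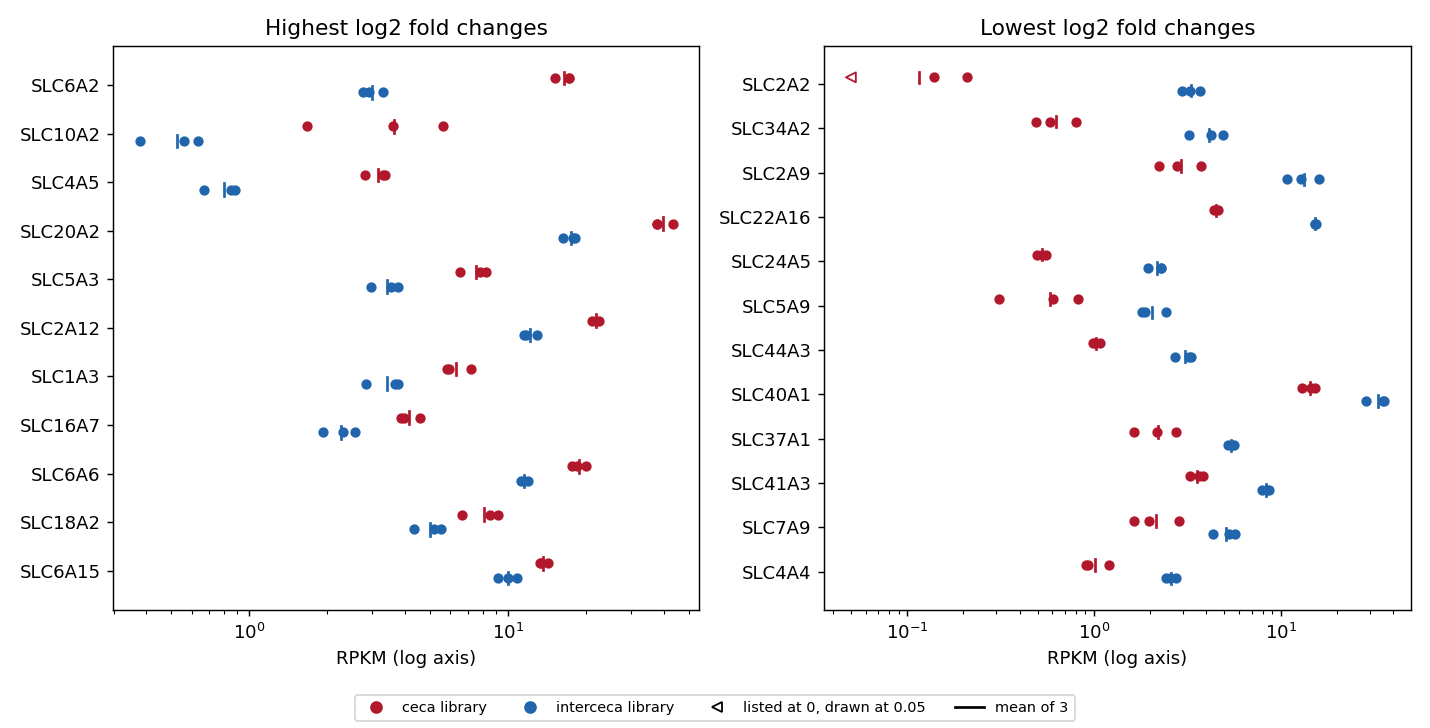
RPKM in each library, on a log axis, of the called members that averaged 2 RPKM or more in their higher tissue, most of the 12 furthest up and the 12 furthest down in ceca. Red points are ceca libraries, blue points interceca libraries and ticks the mean of 3, and the libraries do not overlap for any gene shown. SLC6A2 stands at 15.2 to 17.2 RPKM in ceca against 2.76 to 3.3 RPKM in interceca, and SLC2A2 at 0 to 0.21 RPKM against 2.95 to 3.7 RPKM.

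Sugar carriers were lower in ceca in 7 of 14 cases (50%, against 14.1% of all genes tested), with 1 higher and 6 short of the threshold, and a median log2 fold change of -0.26. Of the 7, SLC2A2 and SLC5A9 passed the filter through the interceca alone, so the filter itself favoured their place in this count. SLC2A2, the low-affinity glucose carrier of the basolateral face of enterocytes and of liver and pancreatic beta cells, was at 0, 0.21 and 0.139 RPKM in ceca, against 2.95, 3.26 and 3.7 RPKM in interceca. These rest on 0, 8 and 5 recovered reads in ceca and 77, 108 and 141 in interceca. The log2 fold change was the lowest of any member, -2.64 ± 0.19 (limma adjusted p = 5.39e-05), and it was -4.12 with a pseudocount of 0.1 and -5.37 with limma-voom, since the value in ceca is close to 0. SLC2A9, a urate carrier counted here by its family, was at 2.23, 2.78 and 3.73 RPKM in ceca and 10.8, 12.9 and 16.1 RPKM in interceca (-2.01 ± 0.19, limma adjusted p = 0.000187).

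SLC5A9, a sodium-coupled carrier of mannose and glucose, stood at 0.58 ± 0.258 RPKM in ceca against 2.04 ± 0.332 RPKM in interceca (-1.25 ± 0.22, and -1.90 with limma-voom). SLC37A1, which exchanges glucose phosphate for phosphate in the endoplasmic reticulum, stood at 2.2 ± 0.556 against 5.44 ± 0.198 RPKM (-1.16 ± 0.16). SLC37A4, which brings glucose phosphate to the last step of glucose release, differed less, at 25.2 ± 1.89 against 30.6 ± 2.94 RPKM (-0.28 ± 0.09). SLC45A3 was also called lower (-0.89 ± 0.25). Calls of SLC37A4 and SLC45A3 did not hold when 1 library was dropped in 5 and 4 of the 6 cases, with adjusted p up to 0.134 and 0.106. Both held without interceca replicate 1, and that of SLC45A3 also without ceca replicate 2.

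Common glucose carriers moved little. SLC2A1, the general glucose carrier of growing cells, was at 33.1, 31.4 and 34.5 RPKM in ceca and 41.9, 36.7 and 38.6 RPKM in interceca (-0.24 ± 0.06, limma adjusted p = 0.0276). Dropping ceca replicate 1 or 2 or interceca replicate 1 or 3 ended that call, with adjusted p up to 0.0911. SLC2A3, a high-affinity glucose carrier, was at 8.99 ± 0.529 RPKM in ceca against 7.84 ± 0.262 RPKM in interceca (0.19 ± 0.08, adjusted p = 0.125). SLC2A12 was the only sugar carrier called higher, at 21.2, 21.9 and 22.5 RPKM in ceca and 13, 11.8 and 11.6 RPKM in interceca (0.82 ± 0.07, adjusted p = 8.31e-05).

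Several carriers of the absorptive epithelium were lower in ceca, across roles. SLC34A2, the sodium-phosphate cotransporter of the intestinal brush border, stood at 0.58, 0.802 and 0.489 RPKM in ceca against 3.25, 4.26 and 4.89 RPKM in interceca (-2.04 ± 0.19, limma adjusted p = 0.000155, and -2.74 with limma-voom). SLC7A9 and SLC3A1, the light and heavy subunits of the brush border carrier of cystine and dibasic amino acids, were lower together. SLC7A9 was at 1.65, 2.84 and 1.98 RPKM in ceca against 5.29, 5.7 and 4.37 RPKM in interceca (-1.10 ± 0.18, adjusted p = 0.00308), and SLC3A1 at 0.803, 1.0 and 0.934 RPKM against 2.14, 2.44 and 1.88 RPKM (-0.91 ± 0.15, adjusted p = 0.00354). Ceca libraries lay below all interceca libraries for both subunits. SLC34A2 passed the filter through the interceca alone, and SLC3A1 reached 1 RPKM in only 1 ceca library, so the filter favoured both. SLC9A3R1, the scaffold protein that anchors carriers in the brush border and no transporter itself, was at 34.9 ± 1.75 RPKM in ceca and 59 ± 4.25 RPKM in interceca (-0.75 ± 0.07, adjusted p = 0.000124).

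Other carriers of this epithelium were below the filter and were not tested. SLC26A3, the chloride-bicarbonate exchanger of the colon, was at 0.0409, 0 and 0 RPKM in ceca against 1.02, 0.993 and 0.607 RPKM in interceca, or 2, 0 and 0 reads against 38, 47 and 33. SLC1A1, a glutamate carrier of epithelium and neurons just outside the filter, was at 0.337, 0.505 and 0.467 RPKM in ceca against 1.05, 0.855 and 1.01 RPKM in interceca. For both genes the ceca libraries lay below all interceca libraries. SLC15A1, the peptide transporter of the small intestine, overlapped between the tissues at 0.0957 to 0.201 RPKM in ceca and 0.0452 to 0.242 RPKM in interceca, and SLC9A3, the brush border sodium-proton exchanger, was at or under 0.0427 RPKM in every library.

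Most epithelial markers tested and all liver markers tested were lower in ceca as well. Of 14 gut epithelium markers tested, 12 were lower in ceca (85.7%, against 14.1% of all genes tested) and 1, CDX2, was higher. The summed level of the list was 151.5 to 239.2 RPKM in ceca libraries and 502.3 to 740.0 RPKM in interceca libraries. KRT8 and KRT18 of that list were listed at 0 in all 6. Of its other markers below the filter, ELF3 and VIL1 were lower in every ceca library than in any interceca library. GPA33 was higher in every ceca library, and CLDN4 overlapped. Of 16 liver and yolk sac markers listed, 8 were tested and all 8 were lower (100%, against 14.1% of all genes tested). Sums over the list were 25.8 to 36.4 RPKM in ceca and 311.5 to 378.6 RPKM in interceca. ALB, the defining liver gene of that list, did not pass the filter. It was higher in every ceca library, at 0.531 to 0.656 RPKM, than in any interceca library, at 0.373 to 0.49 RPKM. Among the others below the filter, HPX and RBP4 overlapped between the tissues, while FGA and SERPINC1 were lower in every ceca library than in any interceca library. No pancreas marker passed the filter. The part of epithelial cell number in the carriers named here was not tested.

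The bile acid transporter of the ileal brush border, SLC10A2, differed from the epithelial markers in direction. It stood at 1.68, 5.64 and 3.6 RPKM in ceca, against 0.379, 0.563 and 0.634 RPKM in interceca (1.90 ± 0.35, limma adjusted p = 0.00488, and 2.62 with limma-voom). Its ceca libraries spread widely, with replicate 1 the lowest. The same library had the lowest summed epithelium markers of the ceca, 151.5 RPKM against 239.2 and 231.3 RPKM in ceca replicates 2 and 3. CDX2, an intestinal transcription factor, was at 4.95, 9.38 and 8.35 RPKM in ceca and 4.39, 3.27 and 2.79 RPKM in interceca (0.99 ± 0.24, limma adjusted p = 0.0171). It was the only 1 of the 14 epithelium markers tested to be called higher, and 12 were lower. What part epithelial cells or CDX2 have in the level of SLC10A2 was not tested. The other 3 carriers of lipids and bile acids tested did not pass, among them SLC27A4, a fatty acid transport protein, at 17.9 ± 1.41 against 20.2 ± 1.14 RPKM (-0.17 ± 0.08, adjusted p = 0.131, and 0.0405 with the replicate block).

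**Figure D3:**
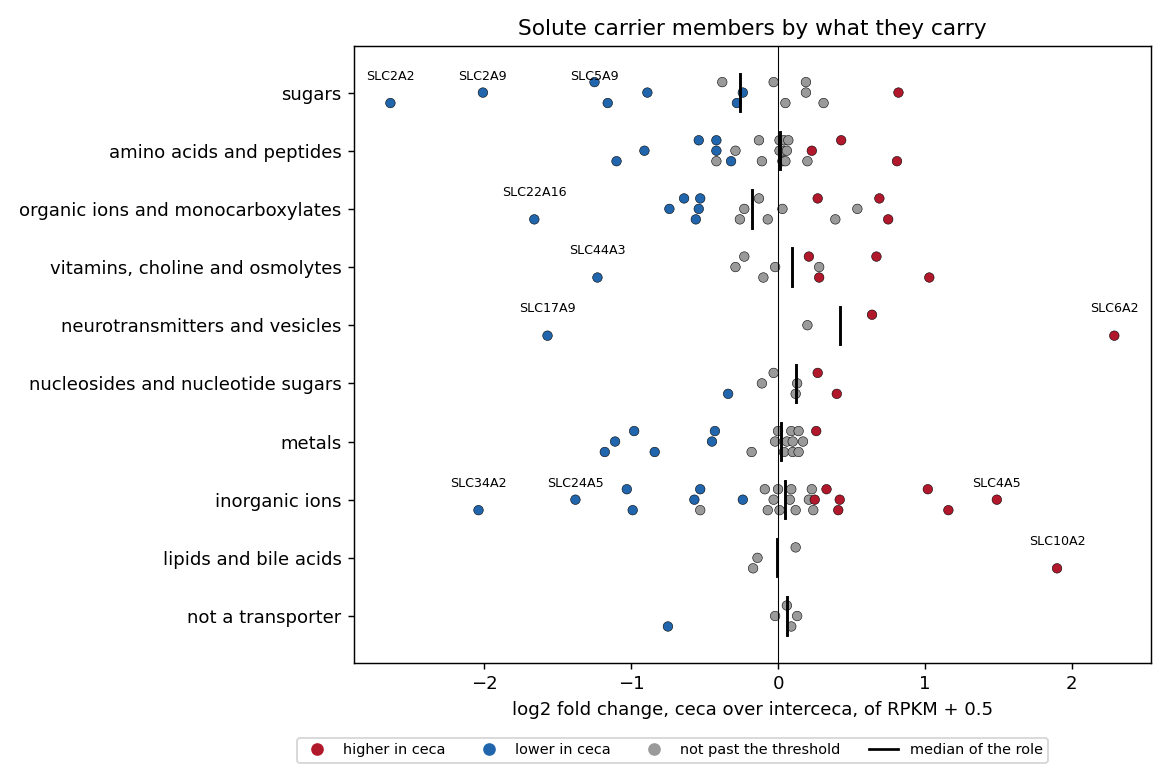
Log2 fold change of each of the 126 members, ceca over interceca, by what it carries. Each point is 1 gene, red or blue where it passed the threshold and grey where it did not, and the bar is the median of the role. Role medians lie between -0.26 (sugars) and 0.42 (neurotransmitters and vesicles), with single genes from -2.64 (SLC2A2) to 2.29 (SLC6A2).

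Metal carriers were lower in ceca or little changed, with 6 of 18 lower (33.3%, against 14.1% of all genes tested), 1 higher and 11 not past the threshold. Their median log2 fold change was 0.02. SLC40A1, ferroportin, the exporter of iron from enterocytes and macrophages, was at 13, 14.6 and 15.3 RPKM in ceca and 28.8, 35.2 and 35.7 RPKM in interceca (-1.18 ± 0.10, limma adjusted p = 9.89e-05). SLC41A3, a magnesium carrier, stood at 3.58 ± 0.297 RPKM in ceca against 8.32 ± 0.359 RPKM in interceca (-1.11 ± 0.10). SLC30A10, a manganese exporter, stood at 2.88 ± 0.194 against 5.55 ± 0.558 RPKM (-0.84 ± 0.11), and SLC31A1, the high-affinity copper importer, at 24.8 ± 1.77 against 34.1 ± 1.52 RPKM (-0.45 ± 0.07). For each of these 4 genes the tissues did not overlap.

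SLC39A8, an importer of zinc and manganese, was at 8.85, 16.6 and 14.5 RPKM in ceca and 20.2, 28.4 and 30.3 RPKM in interceca (-0.98 ± 0.23, limma adjusted p = 0.0166). Replicate 1 was the lowest library of each tissue, and the call ended on dropping interceca replicate 2 (adjusted p = 0.0578) or interceca replicate 3 (0.0586). SLC39A10, another zinc importer, was the metal carrier called higher, at 22.6 ± 2.3 against 18.7 ± 0.124 RPKM (0.26 ± 0.08, adjusted p = 0.04), a call that held on dropping ceca replicate 1 and on dropping no other library (adjusted p up to 0.139). The zinc exporters SLC30A4 and SLC30A1 did not pass. SLC30A4 was at 46.2 ± 1.5 RPKM in ceca and 44.3 ± 1.31 RPKM in interceca, a log2 fold change of 0.06 ± 0.05, and SLC30A1, the zinc exporter of the plasma membrane, at 18.8 ± 0.817 and 17 ± 1.14 RPKM (0.14 ± 0.07). SLC39A5 was listed at 0 in all libraries.

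Carriers of inorganic ions were split evenly, with 7 of 26 higher in ceca, 7 lower, and 12 that did not pass. Each direction held 26.9% of them, against 13.5% higher and 14.1% lower of all genes tested. Of those higher, SLC4A5 and SLC12A5 passed the filter through the ceca alone. Of those lower, SLC34A2, SLC24A5 and SLC12A8 passed it through the interceca alone. SLC20A2, a sodium-phosphate cotransporter of most tissues, was at 37.8, 37.8 and 43.4 RPKM in ceca against 18.2, 17.9 and 16.4 RPKM in interceca (1.16 ± 0.07, limma adjusted p = 3e-05). Its paralogue SLC20A1 was at 23.6 ± 1.96 RPKM in ceca and 27.9 ± 1.31 RPKM in interceca (-0.24 ± 0.07, adjusted p = 0.0414). The call of SLC20A1 held on dropping ceca replicate 1 and on dropping no other library (adjusted p up to 0.125). SLC20A2 was thus the more abundant of the pair in ceca and SLC20A1 in interceca.

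Bicarbonate carriers also changed in both directions. SLC4A5, a sodium-bicarbonate cotransporter, was at 3.34, 3.29 and 2.81 RPKM in ceca against 0.849, 0.668 and 0.883 RPKM in interceca (1.49 ± 0.15, limma adjusted p = 0.000232). SLC4A4, a cotransporter of the same kind found on the basolateral side of epithelia, was at 0.929, 1.21 and 0.908 RPKM in ceca against 2.44, 2.76 and 2.56 RPKM in interceca (-1.03 ± 0.15, adjusted p = 0.00135). SLC4A5 passed the filter through the ceca alone, and SLC4A4 through the interceca, with 1 ceca library at or above 1 RPKM. The pair was picked as members called in opposite directions, so its opposite directions were set by the choice. SLC4A7 of the same family was far more abundant and did not pass, at 16.2 ± 0.977 RPKM in ceca and 16.1 ± 2.07 RPKM in interceca (0.01 ± 0.10, adjusted p = 0.929). SLC4A3 and SLC4A10 did not pass either. SLC4A2, the chloride-bicarbonate exchanger of many cells, was at 16.7 ± 0.735 RPKM in ceca and 13.1 ± 0.202 RPKM in interceca (0.33 ± 0.06, adjusted p = 0.00532).

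Chloride cotransporters were higher in ceca where they were called, apart from SLC12A8. SLC12A2, which brings sodium, potassium and chloride into cells, was at 29.5, 33.1 and 28.5 RPKM in ceca and 23.7, 24.1 and 20.4 RPKM in interceca (0.41 ± 0.08, limma adjusted p = 0.0081). SLC12A5, the chloride extruder known from mature neurons, was at 1.54, 1.52 and 1.96 RPKM in ceca and 0.698, 0.425 and 0.585 RPKM in interceca (1.02 ± 0.18, adjusted p = 0.00423, and 1.58 with limma-voom). SLC12A4, a potassium-chloride cotransporter of most cells, had a log2 fold change of 0.25 ± 0.06, a call that held on dropping interceca replicate 1 and on dropping no other library (adjusted p up to 0.0789). SLC12A8 was just inside the filter, at 0.651, 0.67 and 0.741 RPKM in ceca against 1.31, 1.02 and 1.47 RPKM in interceca (-0.57 ± 0.17, adjusted p = 0.0458). Its call held on dropping interceca replicate 2 and on dropping no other library (adjusted p up to 0.143), and its log2 fold change was -0.21 with quantile normalization and -0.87 with limma-voom.

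Sodium exchangers of organelles and calcium exchangers completed the ion carriers that differed. SLC24A5, a potassium-dependent sodium-calcium exchanger known from pigment cells, stood at 0.527 ± 0.0283 RPKM in ceca against 2.18 ± 0.208 RPKM in interceca (-1.38 ± 0.15, limma adjusted p = 0.000407, and -2.0 with limma-voom). SLC24A3 was lower too (-0.53 ± 0.11), as was SLC9A7, a sodium-proton exchanger of the Golgi, at 2.56 ± 0.25 against 5.63 ± 1.05 RPKM (-0.99 ± 0.15). SLC9A9, an endosomal exchanger, was higher (0.42 ± 0.13, adjusted p = 0.043), which held on dropping interceca replicate 2 and on dropping no other library (up to 0.139). SLC26A2, the sulphate carrier that feeds proteoglycan synthesis, did not pass, at 2.14 ± 0.0992 against 1.99 ± 0.0622 RPKM (0.08 ± 0.12, adjusted p = 0.654).

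The electrochemical gradient that drives sodium-coupled carriers is set by the sodium pump. Of 8 ion pump genes tested, 4 were lower in ceca and 1 was higher, a called share of 62.5%, against 27.5% of all genes tested. ATP1B1, a beta subunit of the sodium pump, was at 43.5 ± 2.93 RPKM in ceca and 124.2 ± 8.36 RPKM in interceca (-1.50 ± 0.07, limma adjusted p = 6.31e-06), while ATP1B3, another beta subunit, did not pass (0.04 ± 0.06). ATP2B2, a calcium pump of the plasma membrane, had a log2 fold change of -1.0 ± 0.15, whereas its relative ATP2B1 was higher (0.78 ± 0.08).

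Amino acid and peptide carriers included, of 22 tested, 3 higher, 6 lower and 13 that did not pass, a called share of 40.9%, against 27.5% of all genes tested. SLC1A3, a glutamate carrier of glia, was at 7.23, 5.93 and 5.84 RPKM in ceca and 3.75, 2.82 and 3.66 RPKM in interceca (0.81 ± 0.14, limma adjusted p = 0.00337). SLC6A15, a carrier of branched-chain amino acids, averaged 13.7 ± 0.538 RPKM in ceca (0.43 ± 0.08, adjusted p = 0.00585). Both had all ceca libraries above all interceca libraries. SLC16A10, a carrier of aromatic amino acids, was lower (-0.54 ± 0.08), and SLC7A6, which exchanges cationic for neutral amino acids, stood at 20.9 ± 0.573 against 28.2 ± 1.1 RPKM (-0.42 ± 0.05, adjusted p = 0.000858). SLC7A4 was also called lower (-0.42 ± 0.11), but not without ceca replicate 1 or 3 or interceca replicate 2 or 3 (adjusted p up to 0.0848).

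The abundant glutamine carriers of the SLC38 family went apart by small amounts. SLC38A1 was at 46.8, 46.1 and 49.7 RPKM in ceca and 41.8, 39.8 and 39.4 RPKM in interceca (0.23 ± 0.05, limma adjusted p = 0.0105), and SLC38A2 at 47.3, 44.2 and 45.5 RPKM in ceca and 59.8, 59.8 and 51.6 RPKM in interceca (-0.32 ± 0.07, adjusted p = 0.00992). Neither pair of tissues overlapped. SLC38A10 was at 60.5 ± 1.49 RPKM in ceca and 66.4 ± 3.15 RPKM in interceca and did not pass (-0.13 ± 0.05, adjusted p = 0.0867, and 0.0376 with the replicate block). SLC6A9, a glycine carrier, was at 13.8 ± 0.677 and 13.5 ± 0.853 RPKM (0.04 ± 0.07, adjusted p = 0.757). SLC7A11, the cystine-glutamate exchanger, was below the filter at 0.407, 0.554 and 0.418 RPKM in ceca and 0.247, 0.28 and 0.319 RPKM in interceca, and SLC7A5, a carrier of large neutral amino acids, was listed at 0 throughout.

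**Figure D4:**
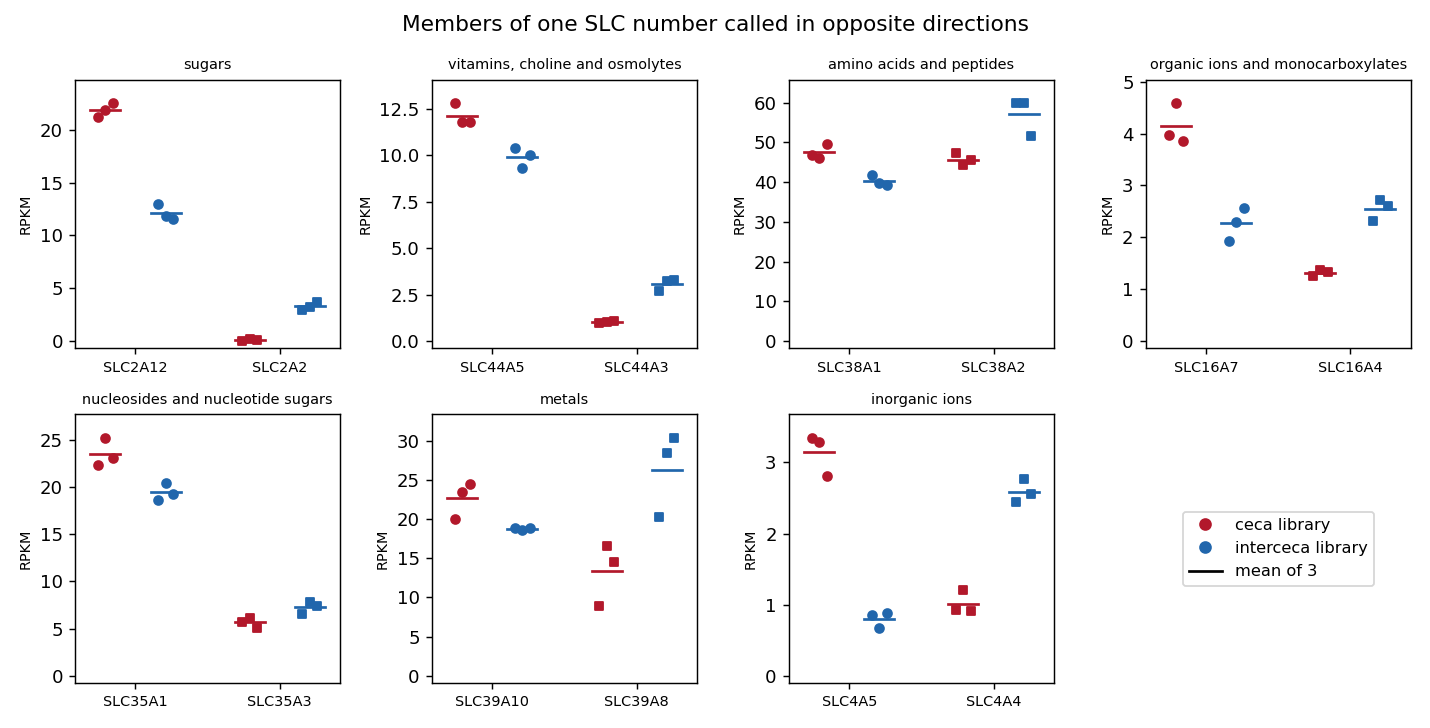
RPKM in each library for pairs of members of 1 SLC family called in opposite directions, the pair with the largest distance in each role. Circles are the member higher in ceca and squares the member lower in ceca, red in ceca and blue in interceca, with bars at the mean of 3. Distances on the log2 scale run from 0.55 (SLC38A1 and SLC38A2) to 3.46 (SLC2A12 and SLC2A2).

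Carriers of monocarboxylates and other organic ions numbered 16 tested, of which 3 were higher, 6 lower and 7 did not pass. The called share was 56.2%, against 27.5% of all genes tested. SLC16A1, a lactate and pyruvate carrier, was at 52.4 ± 0.536 RPKM in ceca and 43.4 ± 3.15 RPKM in interceca (0.27 ± 0.06, limma adjusted p = 0.00992). SLC16A7, a carrier of high affinity for pyruvate, was at 4.14 ± 0.383 against 2.27 ± 0.323 RPKM (0.75 ± 0.13). SLC16A3, the lactate exporter of glycolytic cells, was at 5.04, 6.19 and 6.03 RPKM in ceca and 4.0, 2.7 and 4.93 RPKM in interceca, all ceca libraries above all interceca libraries, but did not pass (0.54 ± 0.19, adjusted p = 0.0711, 0.0429 with the replicate block and 0.0286 without interceca replicate 3). BSG, the chaperone that takes several of these carriers to the membrane, was lower, at 239.0, 249.8 and 250.6 RPKM in ceca and 366.5, 408.7 and 431.7 RPKM in interceca (-0.70 ± 0.06, adjusted p = 0.000158). It was 1 of 13 transporter partners and carriers under other symbols tested, of which 4 were lower and 0 higher. Their called share was 30.8%, against 27.5% of all genes tested, and NPTN of that list did not pass (-0.10 ± 0.06, adjusted p = 0.248).

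Other members of this role were lower in ceca. SLC22A16, a carnitine carrier, was at 4.39, 4.6 and 4.51 RPKM in ceca and 15.2, 15.5 and 15.2 RPKM in interceca (-1.66 ± 0.07, limma adjusted p = 5.27e-06), and the tissues were far apart. SLC16A4, SLC16A12, a creatine carrier, and SLC16A6 had log2 fold changes of -0.74 ± 0.13, -0.64 ± 0.13 and -0.54 ± 0.08. SLC47A1, which exports organic cations for protons, had one of -0.56 ± 0.10 and SLC22A23, whose substrate is not established, one of -0.53 ± 0.08.

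Osmolyte and vitamin carriers numbered 10 tested, of which 4 were higher, 1 lower and 5 did not pass. The called share was 50%, against 27.5% of all genes tested. SLC5A3, which takes up myo-inositol with sodium, was at 6.53, 7.8 and 8.26 RPKM in ceca against 3.75, 3.54 and 2.97 RPKM in interceca (1.03 ± 0.13, limma adjusted p = 0.00062). SLC6A6, the taurine carrier, was at 18.5, 17.7 and 20.1 RPKM in ceca against 11.2, 11.6 and 12 RPKM in interceca (0.67 ± 0.07, adjusted p = 0.000309). Both osmolyte carriers were higher in every ceca library than in any interceca library. SLC19A1, the reduced folate carrier, was at 51.0 ± 1.05 against 44 ± 2.7 RPKM (0.21 ± 0.05, adjusted p = 0.0222), and SLC44A5, of the choline carrier family, at 12.1 ± 0.55 against 9.93 ± 0.566 RPKM (0.28 ± 0.07, adjusted p = 0.0265). The call of SLC19A1 held on dropping interceca replicate 2 alone (adjusted p up to 0.0715), and that of SLC44A5 on dropping interceca replicate 1 alone (up to 0.0859). SLC44A3, of the same family, was lower, at 1.03 ± 0.0476 against 3.09 ± 0.319 RPKM (-1.23 ± 0.14, adjusted p = 0.000412). SLC44A3 passed the filter through the interceca, with 2 ceca libraries at or above 1 RPKM. SLC52A3, a riboflavin carrier, did not pass (-0.23 ± 0.09, adjusted p = 0.102).

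Nucleoside and nucleotide sugar carriers numbered 7 tested, of which 2 were higher, 1 lower and 4 did not pass, with differences of -0.34 to 0.40. The called share was 42.9%, against 27.5% of all genes tested. SLC29A3, a nucleoside carrier of lysosomes, was at 11.2 ± 0.63 RPKM in ceca and 8.39 ± 0.607 RPKM in interceca (0.40 ± 0.08, limma adjusted p = 0.00875), and SLC29A1, that of the plasma membrane, at 11.7 ± 0.628 and 12.7 ± 0.908 RPKM (-0.11 ± 0.08, adjusted p = 0.326). SLC35A1, which brings CMP-sialic acid into the Golgi, had a log2 fold change of 0.27 ± 0.07 and SLC35A3, which brings UDP-N-acetylglucosamine, one of -0.34 ± 0.11. Of the libraries dropped in turn, the call of SLC35A1 held without ceca replicate 1 and without interceca replicate 2 (adjusted p up to 0.0654), and that of SLC35A3 without interceca replicate 1 (up to 0.157).

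The 84 solute carrier genes outside the filter comprised 65 above 0 in some library and 19 listed at 0 in all 6. Just outside it lay SLC4A11, which reached 3 libraries only at 0.937 RPKM, and SLC1A1, at 0.855 RPKM, and just inside it SLC12A8, at 1.02 RPKM, and SLC6A4, at 1.06 RPKM. SLC4A1, the anion exchanger of the red cell membrane, was among those listed at 0, while the embryonic globin gene HBZ was at 287.1 ± 14.6 RPKM in ceca and 245.4 ± 32.3 RPKM in interceca. HBAA and HBAD were also listed at 0, so a gene at 0 here is only described as listed so.

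Of the 29 mitochondrial carriers tested, 4 were lower in ceca, 0 were higher and 25 did not pass. The called share was 13.8%, against 27.5% of all genes tested, and the median log2 fold change of these carriers was -0.01. SLC25A4, the exchanger of ADP and ATP known from heart and muscle, was the largest of these, at 13.8, 16.4 and 16.4 RPKM in ceca against 36.2, 35.5 and 39.4 RPKM in interceca (-1.23 ± 0.08, limma adjusted p = 3.71e-05). Smooth muscle markers were lower too, 7 of 9 tested (77.8%, against 14.1% of all genes tested). Their sums were 316.2 to 352.1 RPKM in ceca and 630.6 to 660.9 RPKM in interceca, and the part of muscle cells was not tested. Of 20 ABC transporters tested, 5 were higher and 3 lower, a called share of 40%, against 27.5% of all genes tested. ABCC9 (-1.58 ± 0.11), ABCG2 (-1.10 ± 0.08) and ABCA1 (1.46 ± 0.18) were the furthest from 0.

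In the authors' deposited table, 28 of the members had an adjusted p under 0.05 and a positive log2 fold change and 37 had a negative one. The share of all genes past that limit in the authors' table is not given here, so these counts serve only to compare calls. All 24 members called higher here and 35 of the 36 called lower were among them, the exception being SLC35A3, with an adjusted p of 0.103 in the authors' deposited table. No member was called in opposite directions. The library kit keeps strand, per the labels' protocols, but whether counting used it is unknown, and 17 of the 60 called members overlap another listed gene in RefSeq (GRCg7b), so that reads of the pair may not be told apart. Among these are SLC3A1 with PREPL, SLC7A9 with CEP89, SLC12A5 with NCOA5, SLC4A4 with GC, SLC24A5 with MYEF2, SLC5A9 with SPATA6, SLC5A3 with MRPS6, SLC19A1 with COL18A1 and SLC44A3 with F3.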

How the data were processed

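RNA-seq values of 3 ceca and 3 interceca libraries of chick embryo gut were used as the authors' deposited RPKM, 1 file per library. The series table repeats these RPKM (equal in 6 of 6 files) with the authors' log2 fold change, p-value, adjusted p-value and its −log10, per the file headers. The submitters' processing notes name STAR, HTSeq, edgeR and bcl2fastq and the genome build galGal4. Their versions, settings, annotation and strand use are not given in the sources here. A single row that names no gene (1) was left out.

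RPKM are not counts, so log2(RPKM + 0.5) was fitted with limma 3.58.1 in R 4.3.3 (eBayes with a mean trend, two-sided, no covariate beside tissue, Benjamini-Hochberg adjustment), on the 10678 genes that reached 1 RPKM in 3 or more libraries. The RPKM steps gave whole reads, within 0.01 read, for 99.99% of the genes tested, for limma-voom as an alternative. The fit was tested on simulated data. Alternatives were other pseudocounts, filters and scalings, no trend, library weights, the replicate block and each library left out. Counting limits are 3 reads per library, counting error only. Python 3.11.15 and pandas 2.3.3 served for tables.

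Members and lists were chosen with earlier results of these data known. Roles were assigned by symbol, mostly by SLC family number, with some members set apart from their family, such as SLC16A10 among the amino acid carriers. SLC2A9, a urate carrier, was counted with the sugar carriers of its family. The genes named are the 12 highest and 12 lowest called log2 fold changes with at least 2 RPKM in the higher tissue, the 10 most abundant members, up to 3 called members per role and direction with the smallest p, members chosen for a known role, those beside the filter, and the opposite pairs. SLC45A3, SLC37A4, SLC7A4, SLC12A4, SLC9A9, SLC9A7, SLC24A3, SLC31A1, SLC3A1, SLC4A2, SLC4A3, SLC4A7, SLC4A10, SLC16A12, SLC47A1, SLC1A2, MSLN, HBZ, ALB, SLC25A4 and the other genes of lists were named after their values were seen. Some genes that the rule names are not reported here.

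Both tissues carry replicate numbers 1 to 3 in the labels. Across genes, libraries of the same number deviated together from their tissue mean, with r of 0.364, 0.227 and 0.213, so the numbers were taken to pair the libraries, from the data and not from the labels. The main fit leaves this pairing out, and only the replicate block takes it in.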

Additional observations from a re-analysis of the deposited data

How the results depend on the processing

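The 60 calls were examined under 17 alternatives. Of the 24 members called higher in ceca 18 kept their call in every alternative that tested them, and of the 36 called lower 28 did. The other 14 (SLC39A8, SLC45A3, SLC12A8, SLC7A4, SLC9A9, SLC12A4, SLC39A10, SLC44A5, SLC2A1, SLC19A1, SLC37A4, SLC20A1, SLC35A1 and SLC35A3) each lost it without some library, and 0 results of a named gene reversed. With a library left out, 18 to 22 members were higher and 28 to 33 lower, and the count of all genes higher was 947 to 1314, the 947 being without ceca replicate 3. A filter at 5 RPKM left 21 members lower. SLC35A3 was tested there and not called (adjusted p = 0.05), and the others lost were no longer tested. With the replicate block, 28 members were higher and 39 lower, with all 60 calls kept, and of all genes tested 1879 were higher and 1888 lower. The 7 added were SLC45A4, SLC2A8, SLC9A8 and SLC44A1, with adjusted p of 0.0217, 0.0474, 0.0288 and 0.0144, and SLC16A3, SLC27A4 and SLC38A10. The median log2 fold change of all genes was 0.0102, 0.00137 with median-of-ratios scaling and 0.0222 with quantile normalization.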
